A study of Mus musculus with 2 samples.

Results

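The Mir183-Mir96-Mir182 cluster of the mouse was measured in the adrenal gland by microRNA sequencing. Its members were the rows of the count tables whose GENCODE M21 symbol was Mir183, Mir96 or Mir182. All 3 were found, among 2202 miRNA genes in all. The series holds 1 group, adrenal gland of C57BL/6J mice supplied by The Jackson Laboratory, with 2 libraries numbered as biological replicates 1 and 2. A free-text label calls the mice wild type and male, the field for sex reads as not collected, and age and stage are unknown. No treatment, time course or altered allele is part of the series, so no conditions can be contrasted. Each replicate has a biosample record of its own, but the donor record is shared. The spread between them may therefore be technical. P-values between them set the difference of the 2 libraries against counting error alone and hold no estimate of the spread between replicates.

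MicroRNAs are short RNAs cut from hairpin precursors that pair with messenger RNAs mainly through bases 2 to 8 of their 5′ end, the seed, and lower the output of those messages. The members of this cluster lie close together on 1 strand and are known to be made from a shared primary transcript. They are best known from sensory cells, the photoreceptors of the retina and the hair cells of the inner ear, and changes in the seed of miR-96 cause hearing loss in mice and people. The adrenal gland joins a steroid-making cortex to a medulla of chromaffin cells, which are neuroendocrine cells of neural crest origin. In whole tissue, fewer cells of a type and less RNA per cell cannot be told apart.

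The mature 5p arms, from RefSeq on GRCm38.p6, are shown because their near-identical seeds set which messages each member can pair with. Capitals mark bases 2 to 8, and all 3 lie on the minus strand of chromosome 6.
mmu-miR-183-5p: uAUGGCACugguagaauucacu
mmu-miR-96-5p: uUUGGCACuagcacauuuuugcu
mmu-miR-182-5p: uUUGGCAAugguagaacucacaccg
Counted from 1 at the 5′ end, the seed of miR-96-5p differs from that of miR-183-5p by the substitution U2A and from that of miR-182-5p by C8A. Outside the seed the closest match was between the other members: without gaps, miR-182-5p and miR-183-5p were identical at 13 of 15 positions there. The figure was 7 of 15 for miR-96-5p against miR-183-5p and 6 of 16 for miR-96-5p against miR-182-5p. All 3 carry UGGCA at positions 3 to 7, which 5 of 1679 mature mouse miRNAs in the RefSeq table have there (0.298%).

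The 3p arms do not share a seed with each other or with the 5p arms. They are printed because the deposited counts do not separate the arms of a hairpin, so reads of either arm enter the values below.
mmu-miR-183-3p: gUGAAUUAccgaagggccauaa
mmu-miR-96-3p: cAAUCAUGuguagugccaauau
mmu-miR-182-3p: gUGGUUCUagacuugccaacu

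The hairpins to which reads were assigned are given with both mature arms in capitals.
Mir183: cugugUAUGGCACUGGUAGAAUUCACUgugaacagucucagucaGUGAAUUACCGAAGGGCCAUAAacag
Mir96: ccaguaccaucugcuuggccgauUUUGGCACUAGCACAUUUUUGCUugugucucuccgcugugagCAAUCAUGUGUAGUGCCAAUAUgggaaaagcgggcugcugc
Mir182: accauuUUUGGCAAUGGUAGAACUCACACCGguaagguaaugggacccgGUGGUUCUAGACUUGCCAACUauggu
No hairpin of the cluster shared a stretch of 20 nt with any other miRNA gene or with any of 139565 other GENCODE M21 transcripts, on either strand. The rest of the genome was not searched. The mature forms are 21 to 25 nt long and lie within the labelled insert size of under 30 nt.

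On mm10, Mir183 (ENSMUSG00000065619.2) lies at chr6:30169668-30169737, Mir96 (ENSMUSG00000065586.1) at chr6:30169446-30169551 and Mir182 (ENSMUSG00000076361.1) at chr6:30165918-30165992, all on the minus strand. In the direction of transcription Mir183 therefore comes first, Mir96 follows after 116 bp and Mir182 after a further 3453 bp. The cluster spans 3820 bp and overlaps no other annotated gene, so it is intergenic in GENCODE M21. The nearest annotated gene, 3155 bp upstream of Mir183 on the plus strand, is Rncr4, a long noncoding RNA known from the mouse retina. On the other side, 12459 bp beyond Mir182, ends Nrf1, which encodes a transcription factor of nuclear genes for mitochondrial proteins.

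The libraries differed in depth and in the share of reads placed. Replicate 1 held 10263894 counts on miRNA genes and replicate 2 held 3525666, and unmapped reads made up 13.8% and 41.4% of their reads. Among uniquely mapped reads, 92.9% and 92.6% were assigned to miRNA genes. At these depths a count of 0 allows up to 3 counts, which is 0.292 CPM (assigned counts scaled to the same library total) in replicate 1 and 0.851 CPM in replicate 2.

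Mir182, the gene of miR-182, was the most abundant member. It had 993 counts (96.7 CPM) in replicate 1 and 244 counts (69.2 CPM) in replicate 2, or 83.0 ± 19.5 CPM (SD, n = 2). The exact Poisson 95% intervals of its level ran from 90.8 to 103 CPM and from 60.8 to 78.5 CPM, so the libraries lay apart by more than counting error. By mean level it ranked 182 of 2202 genes. Here and below, intervals take in counting error alone and hold no spread between libraries. PCR copies are not marked as such in these reads, so the intervals may be too narrow even for counting error.

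Mir183, the gene at the 5′ end of the cluster, came next. It had 613 counts (59.7 CPM) in replicate 1 and 139 counts (39.4 CPM) in replicate 2, or 49.6 ± 14.4 CPM (SD, n = 2), at rank 205. Its intervals ran from 55.1 to 64.6 CPM and from 33.1 to 46.6 CPM. The higher level of Mir183, 59.7 CPM, lay below the lower level of Mir182, 69.2 CPM. Within each library the intervals of the 2 genes did not overlap. Across libraries they did: that of Mir183 in replicate 1 reached 64.6 CPM, and that of Mir182 in replicate 2 began at 60.8 CPM.

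Mir96, the member tied to hearing loss, was the lowest and, in replicate 2, close to the limit of detection. It had 49 counts (4.77 CPM) in replicate 1 and 7 counts (1.99 CPM) in replicate 2, or 3.38 ± 1.97 CPM (SD, n = 2), at rank 324. In replicate 2 the interval of its count ran from 2.81 to 14.4 counts and so reached down to the 3 counts that a count of 0 allows. Mir182 and Mir183 passed 10 CPM in both libraries, as did 267 genes in all, and Mir96 did so in neither. Both detected members stood below the median of those 267 genes, which was 228 CPM.

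**Figure D1:**
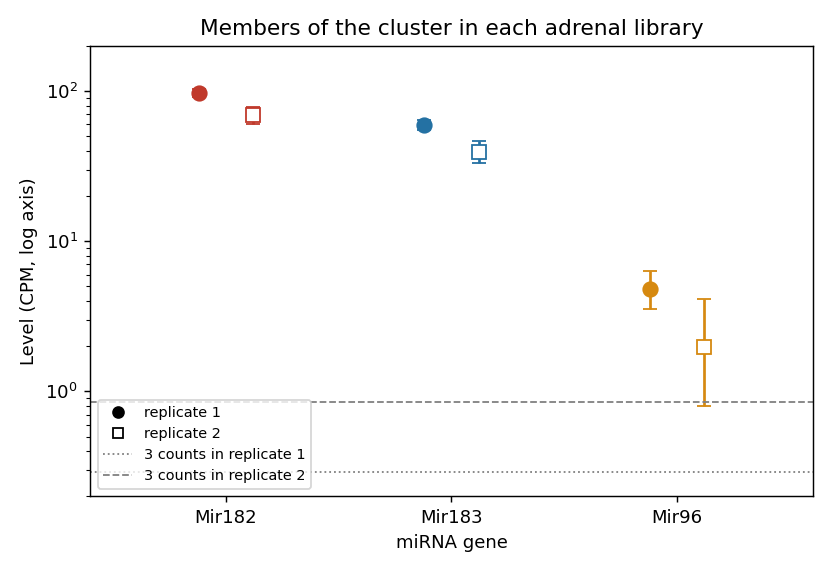
Level of each member in each library in CPM on a log axis, with exact Poisson 95% intervals; filled circles are replicate 1, open squares replicate 2, and the grey lines mark 3 counts in each library. Mir182 lies at 96.7 and 69.2 CPM, Mir183 at 59.7 and 39.4 CPM, and Mir96 at 4.77 and 1.99 CPM, with the lower end of its second interval at the grey line of that library.

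The cluster as a whole took 161 CPM in replicate 1 and 111 CPM in replicate 2, which is 136 ± 35.8 CPM (SD, n = 2) or 0.0136% of assigned counts. The shares of Mir182 and Mir183 in this sum were close in the libraries, while that of Mir96 rested on 49 and 7 counts. Mir182 made up 60.0% of the cluster's 1655 counts in replicate 1 (Clopper-Pearson 95% interval 57.6% to 62.4%) and 62.6% of its 390 counts in replicate 2 (57.6% to 67.4%). Mir183 made up 37.0% (34.7% to 39.4%) and 35.6% (30.9% to 40.6%). Mir96 made up 2.96% (2.20% to 3.90%) and 1.79% (0.725% to 3.66%). For each member the intervals of the libraries overlapped, and a difference in composition was not tested.

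The order of Mir182 above Mir183 above Mir96 was the same in both libraries. A read was taken as a whole mature miRNA, so counts were compared between members without division by hairpin length. Mir182 had 1.62 times the counts of Mir183 in replicate 1 (95% interval 1.46 to 1.79) and 1.76 times in replicate 2 (1.42 to 2.18). Mir183 had 12.5 times the counts of Mir96 in replicate 1 (9.34 to 17.1) and 19.9 times in replicate 2 (9.39 to 50.3). The levels thus did not follow the order along the transcript: the first and the last hairpin were the abundant ones and the middle hairpin was low. Per nucleotide of hairpin, where Mir96 is the longest at 106 nt against 75 nt for Mir182 and 70 nt for Mir183, the order held as well, with mean shares of 60.1%, 38.2% and 1.65%. Differences between sequences in ligation and amplification were not measured here.

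**Figure D2:**
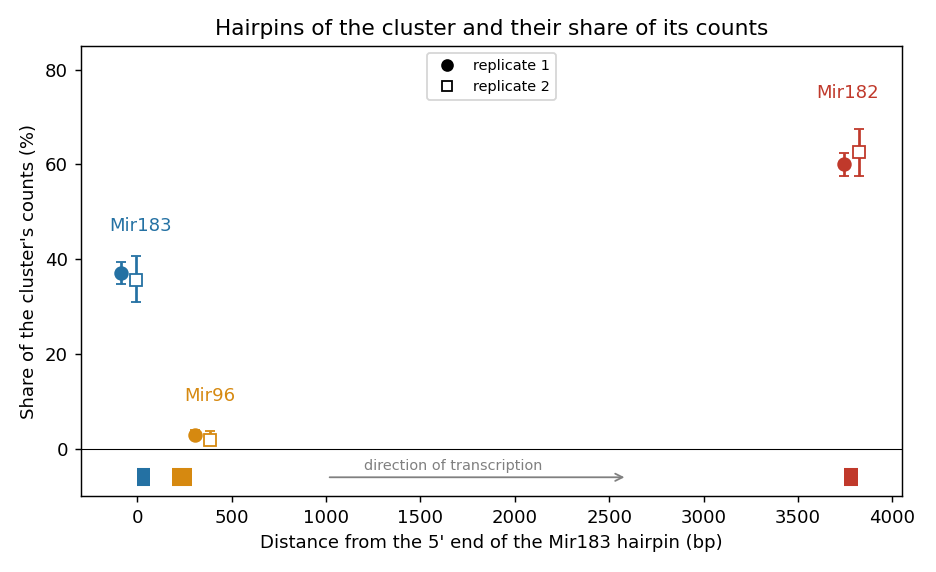
Share of the cluster's counts taken by each member, in percent with Clopper-Pearson 95% intervals, above a map to scale of the hairpins against distance in bp from the 5′ end of the Mir183 hairpin; points of the replicates are shifted sideways for clarity. Mir96, 116 bp from Mir183, takes 2.96% and 1.79%, while Mir182, a further 3453 bp away, takes 60.0% and 62.6%.

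The hairpins were also compared as predicted structures. The minimum free energy predicted by RNAfold was -47.9 kcal/mol for the 106 nt of Mir96, -29.9 kcal/mol for the 75 nt of Mir182 and -26.2 kcal/mol for the 70 nt of Mir183. Their GC contents were 50.9%, 48.0% and 45.7%, and 17 to 19 nt separated the mature arms. These are properties of the annotated sequences, and the entries differ in how much flanking sequence they hold.

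Unequal levels within a cluster were common in these libraries. The annotation held 16 clusters with neighbours within 10 kb on 1 strand and at least 3 genes with counts in both libraries. The highest member of the Mir183-Mir96-Mir182 cluster stood 20.3-fold above the lowest in replicate 1 and 34.9-fold in replicate 2, a geometric mean of 26.6-fold, which placed it 10 of 16. The median over those clusters was 58.4-fold, and it was 87.7-fold with neighbours within 5 kb or within 50 kb. Of the 16, 10 hold counted genes that share 20 nt with a copy elsewhere, and their low members may have lost reads to multimapping, which was not tested. Among the 6 clusters without such genes, a comparison added after the data were seen, this cluster stood 2 of 6, with a median of 11.4-fold. Among the 8 clusters with exactly 3 counted genes, whose median was 27.9-fold, it stood 5 of 8, between Mir341-Mir1188-Mir370 with 29.2-fold and Mir25-Mir93-Mir106b with 5.31-fold. The epithelial cluster of Mir200b, Mir200a and Mir429 had 3.61-fold. None of the genes of these named clusters shares 20 nt with a copy elsewhere. The place of the cluster among others thus depended on which clusters were compared.

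**Figure D3:**
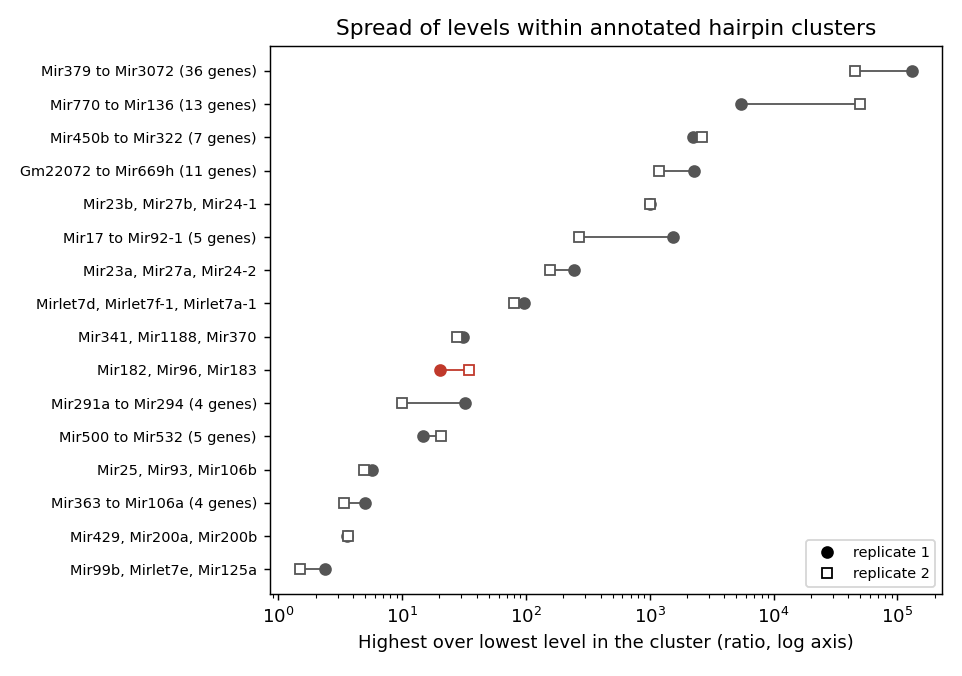
Highest over lowest level within each annotated cluster of at least 3 counted genes, as a ratio on a log axis; filled circles are replicate 1, open squares replicate 2, and the cluster of Mir182, Mir96 and Mir183 is in red. It lies at 20.3 and 34.9, 10 of 16 by geometric mean, and 2 of 6 among clusters whose genes share no 20 nt with a copy elsewhere, which range from 1.88 to 29.2.

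All members had lower levels in replicate 2 than in replicate 1. With 1 group, the exact two-sided binomial test compares these 2 libraries and not conditions. It was run on 443 genes with at least 10 counts, with TMM scaling and Benjamini-Hochberg adjustment over all of them. Over all genes 52.8% were called at an adjusted p under 0.05. Of all tested genes, 31.6% were called as higher in replicate 1 and 21.2% as higher in replicate 2. The 3 members were all called as higher in replicate 1, which is a share to be read against that background.

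By that test Mir182 had a log2 ratio of replicate 2 over replicate 1 of -0.50 (95% interval -0.71 to -0.30, adjusted p = 1.75e-06, exact binomial test). Mir183 had -0.61 (-0.89 to -0.35, adjusted p = 6.32e-06, exact binomial test). Mir96 had -1.20 (-2.67 to -0.13, adjusted p = 0.0414, exact binomial test). The intervals of the 3 members overlapped, and differences between members in this ratio were not tested. The call of Mir96 was lost with DESeq2 size factors (adjusted p = 0.0575), in the column without strand (0.0602) and without a filter on low counts (0.0708), all by the exact binomial test.

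Genes of like level also differed between the libraries. Of 85 tested genes with a mean from 24.8 to 166 CPM, a range reaching from 2-fold below Mir183 to 2-fold above Mir182, 58 were called (68.2%) and 52 had a ratio below 0. Their median absolute log2 ratio was 0.40. Among 72 tested genes within 2-fold of Mir96, from 1.69 to 6.76 CPM, 12 were called and the median absolute log2 ratio was 0.65. Over all 443 genes the median log2 ratio was -0.17, and 263 genes (59.4%) had a ratio below 0.

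**Figure D4:**
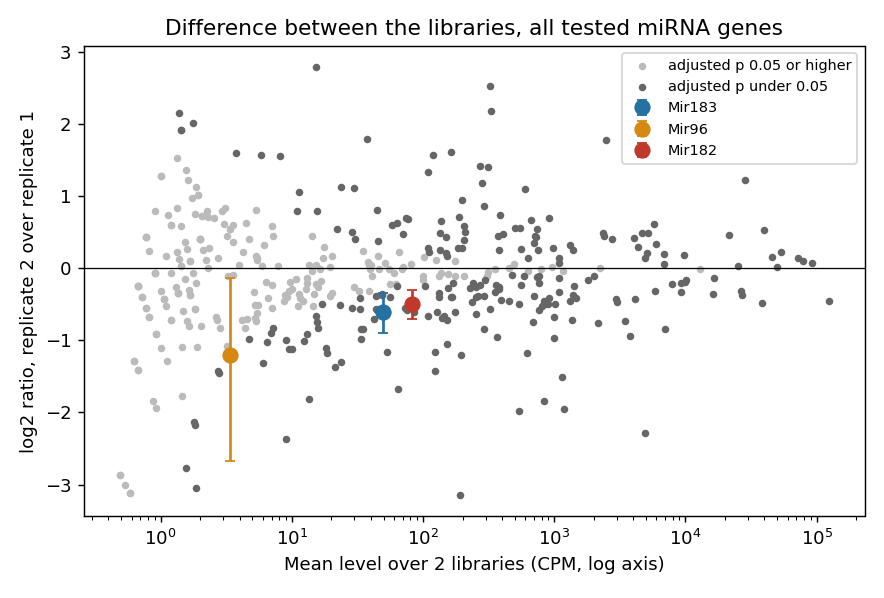
Log2 ratio of replicate 2 over replicate 1 against mean level in CPM on a log axis for the 443 tested miRNA genes, dark where the adjusted p was under 0.05; the members are in colour with 95% binomial intervals. All members lie below 0, at -0.50, -0.61 and -1.20, inside the cloud of genes of like level.

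Other miRNAs with the same seeds were at or near 0. The seed of miR-96-5p also stands in mmu-miR-1271-5p, from Gm24195 (ENSMUSG00000080454.3), which had 0 counts in both libraries and so at most 0.292 and 0.851 CPM. The seed of miR-96-3p stands in mmu-miR-3475-5p, whose gene Mir3475 had 3 counts and 1 count. No other mature miRNA in the RefSeq table had the seed of miR-183-5p or of miR-182-5p. The core UGGCA at positions 3 to 7 is also in mmu-miR-7022-5p, and Mir7022 had 1 count in each library. Among genes with this core, Mir182 and Mir183 thus held nearly all uniquely mapped counts.

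The miRNA genes closest to the members over the 2 libraries were picked by Euclidean distance in log2(CPM + 0.5). For Mir182 they were Mir669c (103 and 68.6 CPM, distance 0.093), Mir30c-1 (89.4 and 60.4 CPM, 0.22) and Mir666 (85.4 and 59.0 CPM, 0.29). For Mir183 they were Mir450b (62.5 and 40.6 CPM, 0.078), Mir212 (63.3 and 42.0 CPM, 0.12) and Mir190a (55.0 and 43.1 CPM, 0.17). The levels of Mir669c, Mir30c-1 and Mir190a are uncertain because each shares 20 nt with a gene at another locus. Mir96 lies below the 10 CPM that these genes had to reach in mean level, so the genes picked for it were not of like level. They were Mir6240 (11.1 and 9.08 CPM, distance 2.25), Mir184 (13.1 and 9.08 CPM, 2.38) and Mir483 (11.3 and 10.2 CPM, 2.41). With 2 libraries the likeness of the genes named for Mir182 and Mir183 is one of level and of a single ratio.

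The neuroendocrine miRNA genes were each above the cluster in mean level, by widely different amounts. Mir375, which is enriched in hormone-secreting cells such as those of the islets, reached 68022 and 76044 CPM in the libraries. Its mean was 868-fold that of Mir182 and 530-fold that of the cluster. Mir7b, of the neuroendocrine mir-7 family, had 4743 and 3557 CPM, 30.5-fold the mean of the cluster. Mir7-1 (479 and 251 CPM) stood 2.69-fold and Mir7-2 (176 and 234 CPM) 1.51-fold above it, and both are uncertain because they share 20 nt with each other. The list of Mir375, Mir7b, Mir7-1 and Mir7-2 summed to 73420 and 80086 CPM, with all 4 detected. Of these, 2 were called as higher in replicate 1 and 2 as higher in replicate 2, against 31.6% and 21.2% of all tested genes. Mir375 made up 92.6% of the sum in replicate 1. Mir375 and Mir7-2 were higher in replicate 2, while Mir7b and Mir7-1 were lower there, as the cluster was.

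Among other miRNA genes known from retina and inner ear, Mir204, abundant in the pigment epithelium of the eye, had 106 and 169 CPM, and Mir181a-1, which shares 20 nt with its copy and is uncertain, had 97.7 and 120 CPM. Both were close to Mir182 in replicate 1 and above it in replicate 2. Of the 7 genes on that list 4 were detected, and the list summed to 283 and 389 CPM. On it, 3 were called as higher in replicate 2 and none as higher in replicate 1, against 21.2% and 31.6% of all tested genes. Mir211 had 1 count in each library. The neuronal genes Mir124a-3 and Mir9-1 had no count, but each shares 20 nt with copies at other loci, so their uniquely mapped counts do not bound their level.

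Of the 9 neuronal genes 2 were detected, Mir137 at 595 and 823 CPM and Mir128-1 at 14.7 and 32.3 CPM. Both were called as higher in replicate 2, as were 21.2% of all tested genes. The list summed to 610 and 856 CPM. Its 5 genes without a count were Mir124a-1, Mir124a-2, Mir124a-3, Mir9-1 and Mir9-2, all with copies elsewhere. The level of Mir128-1 is uncertain for the same reason.

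Epithelial miRNA genes, which mark another kind of cell in which this cluster can be expressed, were lower than Mir182 and Mir183. Mir96, at a mean of 3.38 CPM, lay below all of them but Mir205, whose mean was 1.20 CPM. The 6 epithelial genes summed to 49.6 CPM in replicate 1 and 44.5 CPM in replicate 2, below the 161 and 111 CPM of the cluster. Of the 6, 2 were detected, Mir200b at 12.0 and 16.5 CPM and Mir429 at 14.0 and 10.2 CPM, and Mir205 had 10 and 5 counts. Mir200c was called as higher in replicate 1 at 13.6 against 6.24 CPM, and the other 5 were not called. Over all tested genes 31.6% were called as higher in replicate 1. No gene of this list had a count of 0.

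Genes of leukocytes, cells in which members of the cluster are also known to be induced, summed to 1648 and 1700 CPM, with all 5 detected. Mir155 (172 and 108 CPM) and Mir146 (967 and 716 CPM) were called as higher in replicate 1, as the members were, and Mir142, Mir150 and Mir223 as higher in replicate 2. Mir146 shares 20 nt with a gene elsewhere and is uncertain. Endothelial Mir126a had 89916 and 95595 CPM, and the smooth muscle genes Mir143 and Mir145a summed to 25619 and 26619 CPM. All 3 were called as higher in replicate 2. Over all tested genes 31.6% were called as higher in replicate 1 and 21.2% as higher in replicate 2. Mir451a, a red blood cell miRNA gene picked after its values were seen, was at 8085 and 1685 CPM. The median log2 ratio was -0.14 over 4 tested neuroendocrine genes, 0.78 over 2 neuronal and 0.47 over 4 sensory genes. It was 0.20 over 6 epithelial and 0.45 over 5 leukocyte genes, against -0.17 for all tested genes and -0.61 for the members. The log2 ratio of the summed level had the other sign on the neuroendocrine (0.11) and the epithelial list (-0.17). On the other lists it had the same sign as the median. The part of these cell types in the level of the cluster was not tested.

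**Figure D5:**
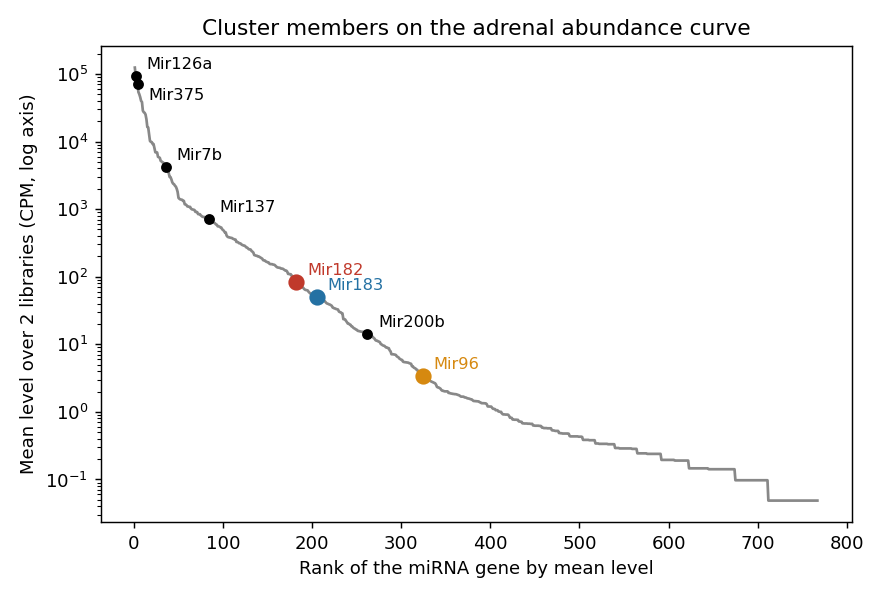
Mean level over 2 libraries in CPM on a log axis against the rank of each miRNA gene with a count, with the members in colour and genes of the marker lists in black. Mir182 and Mir183 stand at ranks 182 and 205, below Mir375, Mir7b and Mir137 and above Mir200b, and Mir96 stands at rank 324.

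Reads opposite the cluster were nearly absent. The antisense column held 1 read at Mir182 in replicate 1 and none at the other members or in replicate 2. The column without strand gave 994 counts for Mir182 in replicate 1 and otherwise the same counts as the sense column.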

How the data were processed

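The authors deposited raw counts per miRNA gene for 2 libraries of total RNA, 1 table each, with 3 columns and 4 summary lines. Build mm10 and annotation GENCODE M21 are named per the file headers of the accompanying descriptions, and adapter trimming per the labels' protocols; names of aligner and counter are not given in the sources used. The second count column, with the larger sum, was taken as the sense strand. Unmapped, multimapping and no-feature reads (13.8%, 32.6% and 3.80% of replicate 1; 41.4%, 22.7% and 2.65% of replicate 2) were left out of totals. No sense read was ambiguous.

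All 2202 identifiers matched GENCODE M21. CPM used all assigned counts. Libraries were compared by an exact two-sided binomial test on TMM-scaled sizes (edgeR 4.0.16, DESeq2 1.42.0 as alternative, R 4.3.3). Log2 ratios had 0.5 counts added. The test was checked on simulated Poisson counts, which hold counting error alone, so its behaviour under wider spread was not checked. Intervals are 95% exact. Python 3.11.15, scipy 1.17.1 and RNAfold 2.7.2 did the rest. Named genes were the members, genes sharing a seed, the 3 nearest of at least 10 CPM for each member, and 7 marker lists. Members and lists were chosen with earlier results of these data known. Alternatives covered scaling, strand, denominator, filters, pseudocount, hairpin length, cluster distance and leaving out a replicate.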

Additional observations from a re-analysis of the deposited data

How the results depend on the processing

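With all mapped reads as the denominator, mean levels fell to 47.6 CPM for Mir182, 28.4 CPM for Mir183 and 77.9 CPM for the cluster, since multimapping reads then enter the total. Per nucleotide of hairpin the share of Mir183 was 38.2% in place of 36.3%. The log2 ratio of Mir96 was -1.14 with DESeq2 size factors, -1.12 in the column without strand and -1.20 without a filter on low counts. Each time it was no longer past the threshold, while Mir182 and Mir183 stayed past it. The setting without a filter was added for single members after the data were seen, while the filter itself was planned. Of 53 recomputed values under other settings, 46 kept their direction and side of the threshold or moved by less than 1 SD, and none reversed; the number of members called fell from 3 to 2 in the settings that lost Mir96. With 2 replicates, leaving 1 out cannot move a mean by 1 SD, so such values are no check of stability. Leaving out a replicate put the cluster between 111 and 161 CPM and its spread between 20.3-fold and 34.9-fold. The number of genes that differed between libraries was 234, and 206 to 231 under the alternatives. No paired analysis was possible because there is 1 group. Depth limits Mir96 most, with 7 counts in replicate 2.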
